A study of Mus musculus with 8 samples.

Results

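The transcripts of 8 matrix proteoglycans, Dcn, Lum, Bgn, Fmod, Ogn, Prelp, Aspn and Vcan, were followed in mouse hearts in which the m6A methyltransferase gene Mettl3 had been deleted from cardiomyocytes. The genes were taken by symbol, and 8 of 8 were found among the 23045 genes of the normalised expression table. All 8 passed the filter on low values, a mean value of at least 1 over the 8 libraries, which 20313 genes passed. RNA-seq of total heart RNA had been done on 4 WT libraries (genotype Mettl3lox/lox) and 4 Mettl3 KO libraries (genotype Mettl3lox/lox:alphaMHC-MerCreMerpos). At an age of 10 to 16 weeks, mice of both genotypes received intraperitoneal tamoxifen on 7 consecutive days at 100 µg per g of body weight. The study does not state how long after tamoxifen the hearts were taken, and sex was not considered in its design. Both genotypes carry the loxP-flanked Mettl3 alleles. The Cre transgene, a tamoxifen-dependent MerCreMer driven by the cardiomyocyte promoter of alpha myosin heavy chain, is present in the KO mice only, so that deletion of Mettl3 and presence of the transgene cannot be told apart. The labels do not say that each library came from a separate mouse, and p-values therefore measure the spread between these libraries.

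Small leucine-rich proteoglycans (SLRPs) are secreted proteins with a core of leucine-rich repeats, most of which carry chondroitin, dermatan or keratan sulfate chains. They bind collagen fibrils, set fibril thickness and spacing, and hold growth factors of the TGF-beta family in the matrix. Versican, encoded by Vcan, is a large chondroitin sulfate proteoglycan that binds hyaluronan and forms a loose, hydrated matrix. In the heart these genes are known mainly as products of fibroblasts and valve interstitial cells, not of the cardiomyocytes in which the Cre transgene is active.

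The deposited values are read counts normalised by the authors and rounded to whole numbers, so that a value of 1 stands for about 1 read in every library (0.927 to 1.11 values per read). Between 2631904 and 3061268 reads lay behind a library, and 3 reads correspond to a value of 2.78 to 3.33. Mettl3 itself stood at 105, 133, 118 and 107 in WT replicates 1 to 4, compared with 74, 68, 69 and 78 in Mettl3 KO replicates 1 to 4 (the order used throughout), a mean of 116 ± 12.8 against 72.2 ± 4.65 (SD, n = 4), or 62.4% of WT (limma, adjusted p = 0.000184). Libraries differed in atrial transcripts: the summed value of Myl7, Myl4, Sln and Bmp10 was 150, 141, 17 and 137 in WT replicates 1 to 4 and 146, 563, 564 and 911 in Mettl3 KO replicates 1 to 4. WT replicate 3 and Mettl3 KO replicate 1 thus stood apart from the rest of their genotypes, and the effect of leaving each out is given with the results.

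Of the 8 proteoglycan genes, 7 rose in Mettl3 KO hearts and none fell, on the scaling of the authors. Their log2 fold changes lay between 0.23 for Bgn and 1.79 for Fmod, with Dcn, Prelp, Aspn, Ogn and Lum between 0.30 and 0.48. Vcan, at 0.16, did not pass the test. In each of the 7 genes every Mettl3 KO library lay above every WT library. When each library was instead scaled to its fibroblast markers, Fmod was the one member called higher. The estimates of Bgn (-0.04) and Vcan (-0.11) turned below 0 in the planned scaling to 10 markers, in which Dcn (0.03), Prelp (0.09) and Aspn (0.11) stayed above 0 without passing, and those of all 5 were below 0 in a scaling to the 9 detected markers that was chosen after seeing the data. The median over all genes tested moved to -0.28 in the planned scaling and to -0.39 in the other. In limma without a mean-variance trend 3 of the 7 calls held (Fmod, Lum and Ogn), and the adjusted p was 0.0612 for Dcn, 0.105 for Bgn, 0.0903 for Prelp and 0.0829 for Aspn. The test was limma on log2(value + 1) with Benjamini-Hochberg adjustment over all 20313 genes, in which 958 genes (4.72%) were higher and 649 (3.19%) lower at an adjusted p under 0.05. Groups did not overlap, with Mettl3 KO higher, in 1313 genes (6.46%). The median log2 fold change was 0.37 over the 8 genes and -0.01 over all genes tested. The values of the 8 genes summed to 2873 ± 76.7 in WT and 3622 ± 92.6 in Mettl3 KO libraries (SD, n = 4). The highest WT library reached 2950 and the lowest Mettl3 KO library 3520.

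Decorin, biglycan and asporin form the first class of SLRPs. Dcn (ENSMUSG00000019929, chr10:97315471-97354005 in mm39, plus strand), whose product decorates collagen I fibrils and binds TGF-beta, had the highest values of the 8 genes. It stood at 756, 707, 754 and 783 in WT, compared with 939, 919, 942 and 896 in Mettl3 KO libraries. The Mettl3 KO libraries lay within a narrow band above all WT libraries, with a gap of 113 between the groups. The mean rose from 750 ± 31.6 to 924 ± 21.3 (SD, n = 4), which is 0.30 on the log2 scale (SE 0.04, adjusted p = 0.000103 by limma).

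Bgn (ENSMUSG00000031375, chrX:72527208-72539539, plus strand) encodes biglycan, a close relative of decorin that also acts as a danger signal at Toll-like receptors when released from matrix. Its values were 568, 535, 565 and 551 in WT, compared with 676, 652, 638 and 633 in Mettl3 KO libraries. The groups were separated by 65, and the spread within a genotype was the narrowest of the members in WT (coefficient of variation 2.72%). The difference of 0.23 on the log2 scale (SE 0.05, adjusted p = 0.00285 by limma) was the smallest of the 7 called genes.

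Aspn (ENSMUSG00000021388, chr13:49697919-49721041, plus strand) encodes asporin, which binds collagen and calcium and is abundant in cartilage and the periodontal ligament. Values of 255, 209, 241 and 230 were found in WT, compared with 327, 281, 314 and 296 in Mettl3 KO libraries. All Mettl3 KO libraries exceeded the highest WT library by at least 26. This gave a rise of 0.38 on the log2 scale (SE 0.07, adjusted p = 0.00116 by limma).

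Lumican, fibromodulin and PRELP belong to the second class, whose members carry keratan sulfate or lack chains. Lum (ENSMUSG00000036446, chr10:97400990-97408565, plus strand), which regulates collagen fibril assembly in cornea, skin and heart, stood at 224, 196, 222 and 196 in WT, compared with 327, 272, 282 and 293 in Mettl3 KO libraries. Mettl3 KO replicate 1 was the highest and replicate 2 the lowest, still 48 above the highest WT library. Lum rose by 0.48 on the log2 scale (SE 0.07, adjusted p = 0.000135 by limma).

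Fmod (ENSMUSG00000041559, chr1:133964992-133976015, plus strand) encodes fibromodulin, a collagen-binding SLRP of tendon and cartilage that guides collagen cross-linking. It had the lowest values and the largest difference. In WT libraries Fmod stood at 32, 20, 11 and 20 and in Mettl3 KO libraries at 76, 54, 71 and 81. The lowest Mettl3 KO library exceeded the highest WT library by 22, although counting error weighs more here than in the other members, and the coefficient of variation over WT libraries was 41.5%. The mean rose from 20.8 ± 8.62 to 70.5 ± 11.7 (SD, n = 4), or 3.4-fold, with a log2 fold change of 1.79 (95% confidence interval 1.33 to 2.25, limma adjusted p = 1.66e-05). Fmod made up 0.721% ± 0.288 of the summed value of the 8 genes in WT and 1.94% ± 0.302 in Mettl3 KO libraries (SD, n = 4). The WT library with the lowest Fmod value, replicate 3, was also the one with the lowest atrial transcripts, and with any single library left out the log2 fold change of Fmod lay between 1.53 and 2.02 and stayed called.

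Prelp (ENSMUSG00000041577, chr1:133838042-133849152, minus strand) encodes PRELP, an SLRP that anchors basement membranes to collagen through a heparan sulfate-binding N-terminus. Its values were 195, 195, 202 and 169 in WT, compared with 246, 229, 235 and 268 in Mettl3 KO libraries. The groups were separated by 27. Prelp rose by 0.36 on the log2 scale (SE 0.07, adjusted p = 0.00301 by limma), the largest adjusted p of the 7 called genes.

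Ogn (ENSMUSG00000021390, chr13:49761522-49777977, plus strand) encodes osteoglycin, also called mimecan, a third-class SLRP whose abundance in the heart has been linked to left ventricular mass. It stood at 507, 465, 495 and 466 in WT, compared with 694, 680, 638 and 596 in Mettl3 KO libraries. The gap between the groups was 89. The mean rose from 483 ± 21.1 to 652 ± 44.3 (SD, n = 4), or by 0.43 on the log2 scale (SE 0.05, adjusted p = 1.94e-05 by limma).

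Vcan (ENSMUSG00000021614, chr13:89803431-89890628, minus strand), the large hyaluronan-binding member, was the one gene whose groups overlapped. Values of 413, 440, 404 and 465 were measured in WT, compared with 455, 433, 520 and 526 in Mettl3 KO libraries. Mettl3 KO replicates 1 and 2 lay within the range of the WT libraries and replicates 3 and 4 above it. The mean was 430 ± 27.6 in WT and 484 ± 46.6 in Mettl3 KO libraries (SD, n = 4), a difference of 0.16 on the log2 scale (95% confidence interval 0.03 to 0.30). In limma, p was 0.0192 before and 0.137 after adjustment. With any single library left out, the adjusted p of Vcan lay between 0.07 and 0.373.

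**Figure D1:**
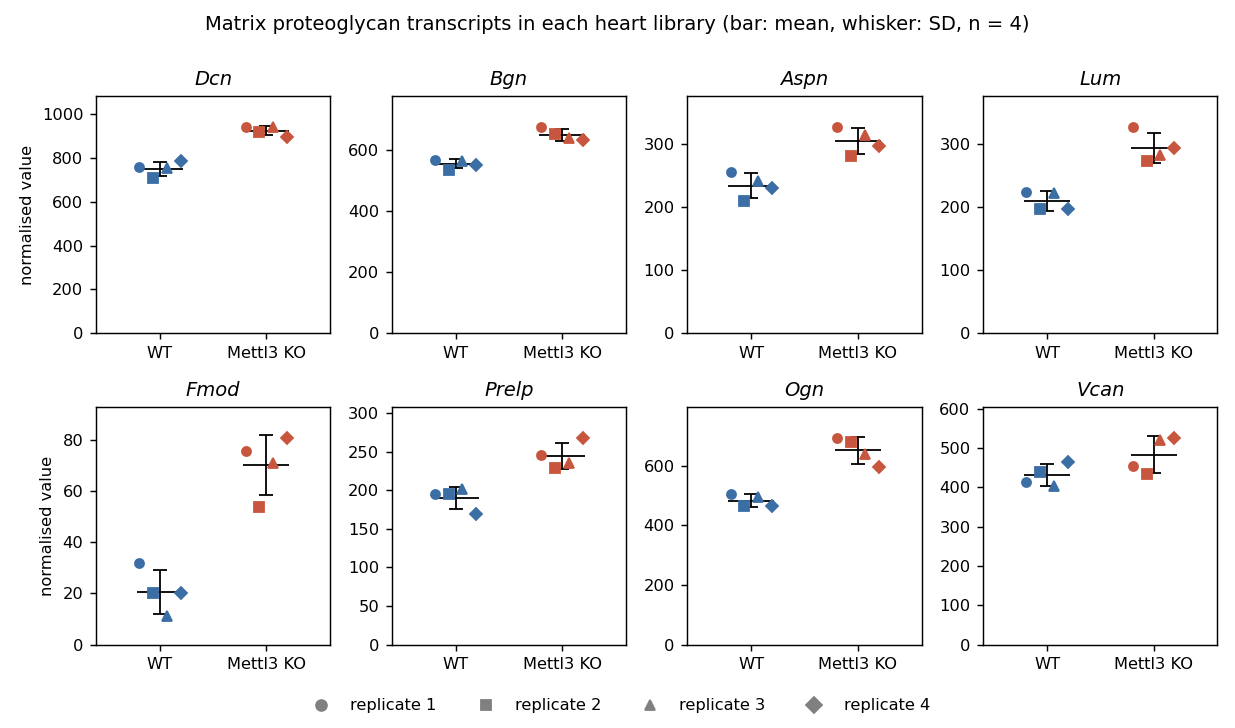
Normalised value (vertical axis, from 0) of each of the 8 proteoglycan genes in the 4 WT (blue) and 4 Mettl3 KO (red) libraries; symbols mark replicate numbers, the horizontal bar is the mean and whiskers are the SD. In 7 genes all Mettl3 KO points lie above all WT points (for Fmod 54 to 81 against 11 to 32), whereas Vcan overlaps; scaled to fibroblast markers, only Fmod stays higher.

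Promoter sequences are shown for 3 genes that span the range of responses: Fmod, with the largest rise, Ogn, with a moderate rise and clearly separated groups, and Vcan, which was not called. They are RefSeq sequences of build GRCm38.p6, an older build than the mm39 coordinates of the expression table, and run 5′ to 3′ on the strand of the gene from 250 bases before to 50 bases after its start. Promoters of 6 of the 8 genes were matched by symbol (Aspn, Bgn, Fmod, Ogn, Prelp and Vcan). Capitals mark matches, on either strand, to any of 5 short motifs: the TATA box (TATAAA), the core of the TEAD or MCAT site (CATTCC), the SMAD box (CAGAC), the AP-1 site (TGANTCA) and the GC box (GGGCGG).
Fmod (chr1:134037004-134037303, plus strand): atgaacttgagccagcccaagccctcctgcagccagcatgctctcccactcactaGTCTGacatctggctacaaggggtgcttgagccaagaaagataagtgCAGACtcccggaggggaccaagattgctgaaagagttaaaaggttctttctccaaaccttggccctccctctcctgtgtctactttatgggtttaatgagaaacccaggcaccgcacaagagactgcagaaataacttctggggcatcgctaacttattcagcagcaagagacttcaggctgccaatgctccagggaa
Ogn (chr13:49607765-49608064, plus strand): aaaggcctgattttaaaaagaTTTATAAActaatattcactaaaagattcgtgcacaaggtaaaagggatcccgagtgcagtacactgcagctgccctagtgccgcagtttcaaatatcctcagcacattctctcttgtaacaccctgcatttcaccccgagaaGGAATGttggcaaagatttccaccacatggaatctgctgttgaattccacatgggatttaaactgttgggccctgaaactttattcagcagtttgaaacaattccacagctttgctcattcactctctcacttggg
Vcan (chr13:89742463-89742762, minus strand): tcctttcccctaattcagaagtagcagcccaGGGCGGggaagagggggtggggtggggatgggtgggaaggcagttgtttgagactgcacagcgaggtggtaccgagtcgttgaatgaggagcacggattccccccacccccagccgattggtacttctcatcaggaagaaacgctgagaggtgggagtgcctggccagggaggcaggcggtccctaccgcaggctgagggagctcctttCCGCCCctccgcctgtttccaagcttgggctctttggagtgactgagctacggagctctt

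The Fmod promoter held 2 SMAD boxes, starting 195 and 148 bases before the gene start, and no match to the other 4 motifs. The Ogn promoter held 1 TEAD core 86 bases before the start and 2 overlapping matches to the TATA letters 229 and 227 bases before it. In the Vcan promoter, 2 GC boxes began 219 and 10 bases before the start. Of the members not shown, Prelp held 3 SMAD boxes, Bgn 3 GC boxes, a pair of which overlap, and Aspn 2 matches to the TATA letters. None of the 6 windows held the AP-1 letters. Among 32851 promoters of the same length, 49.6% held a SMAD box, 35.7% a GC box, 14.7% a TEAD core, 13.6% the TATA letters and 7.81% the AP-1 letters. A match here is a description of the letters and not a binding site.

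Levels of the 8 genes can be compared with each other only per length, and the order of the upper ranks depended on the length taken. Per kilobase of all annotated exons of a gene (GENCODE lengths), Ogn was the highest in WT at 188 ± 8.21 values per kilobase, followed by Dcn at 128 ± 5.41 (SD, n = 4). Aspn (99.3 ± 8.25), Bgn (91 ± 2.48) and Lum (85.6 ± 6.38) came next, and the ranges of neighbours in this order overlapped. Prelp (52.6 ± 4.02), Vcan (29.8 ± 1.91) and Fmod (6.28 ± 2.61) followed, each below the range of the one before. Per kilobase of the longest coding transcript, Dcn was highest (427 ± 18), then Bgn (229 ± 6.25) and Ogn (188 ± 8.21), and the lower ranks, from Aspn to Fmod, kept their order. Vcan, with the longest transcript of the 8, thus had a value in the table close to that of Ogn but a far lower level per length. In Mettl3 KO libraries Lum (120 ± 9.77) stood above Bgn (107 ± 3.16) on the exon scale, without overlap, whereas the ranks of the other 6 genes were as in WT on that scale.

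Within a genotype, several members shared the library in which they were highest or lowest. WT replicate 1 was the highest WT library for 5 of the 8 genes and WT replicate 2 the lowest, alone or tied, for 5. Among Mettl3 KO libraries replicate 1 was highest for 4 genes and replicate 2 lowest for 5. The median profile of the 8 genes, as log2 difference from the WT mean, was 0.05, -0.05, 0.03 and -0.01 in WT replicates 1 to 4 and 0.43, 0.28, 0.37 and 0.32 in Mettl3 KO replicates 1 to 4. The median was highest in Mettl3 KO replicate 1, the Mettl3 KO library with the lowest atrial transcripts.

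Of the 12019 other genes whose mean value reached 20, the 5 whose profile over the 8 libraries differed least from that median were Sspn, Mrpl44, Fam20b, Pdzrn3 and Ehd4. Their mean absolute difference from it was 0.023 for Sspn, 0.024 for Mrpl44, 0.033 for Fam20b, 0.034 for Pdzrn3 and 0.035 for Ehd4 on the log2 scale. Sspn, which encodes the dystrophin-associated membrane protein sarcospan, stood at 855, 846, 867 and 851 in WT, compared with 1150, 1076, 1104 and 1058 in Mettl3 KO libraries. Fam20b, which encodes the kinase that phosphorylates the xylose of the glycosaminoglycan linker, stood at 370, 370, 378 and 370 in WT, compared with 523, 474, 484 and 466 in Mettl3 KO libraries. Log2 fold changes were 0.36 for Sspn, 0.36 for Mrpl44, a protein of the mitochondrial ribosome, 0.39 for Fam20b, 0.40 for the ubiquitin ligase gene Pdzrn3 and 0.36 for Ehd4, an endocytic ATPase gene.

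Most members sit beside other SLRP genes on the chromosome. On chromosome 13, Ecm2, Aspn, Omd and Ogn follow each other on the plus strand with 11.7, 14.9 and 15.2 kb between them, and all 4 rose on the scaling of the authors, whereas with the level of atrial markers as a covariate Omd (1.00, adjusted p = 0.0861) and Ecm2 (0.15, adjusted p = 0.476) did not pass. Omd, which encodes the keratan sulfate SLRP osteomodulin, stood at 12, 16, 15 and 15 in WT, compared with 28, 36, 28 and 29 in Mettl3 KO libraries (adjusted p = 0.00237 by limma, for a rise of 1.01 ± 0.20 on the log2 scale, the error being the SE). Ecm2, a leucine-rich matrix protein gene, stood at 269, 337, 269 and 312 against 338, 381, 407 and 421, the groups being 1 value apart (log2 fold change 0.38, SE 0.08, limma adjusted p = 0.00255). Aspn and Ogn both lie within the antisense gene Cenpp, whose values were 17 to 30, and reads had been counted by strand. On chromosome 10, Dcn and Lum are 47 kb apart on the plus strand, followed by Kera and Epyc. Kera was at 0 to 4 in all libraries and was not tested, and Epyc, at 4, 1, 3 and 1 in WT, compared with 7, 3, 16 and 7 in Mettl3 KO libraries, did not pass the test (adjusted p = 0.0556). On chromosome 1, Prelp and Fmod lie 116 kb apart on opposite strands with log2 fold changes of 0.36 (95% confidence interval 0.21 to 0.51) and 1.79 (1.33 to 2.25), intervals that do not overlap. Optc, 2.3 kb from Prelp, was at 0 to 2.

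**Figure D2:**
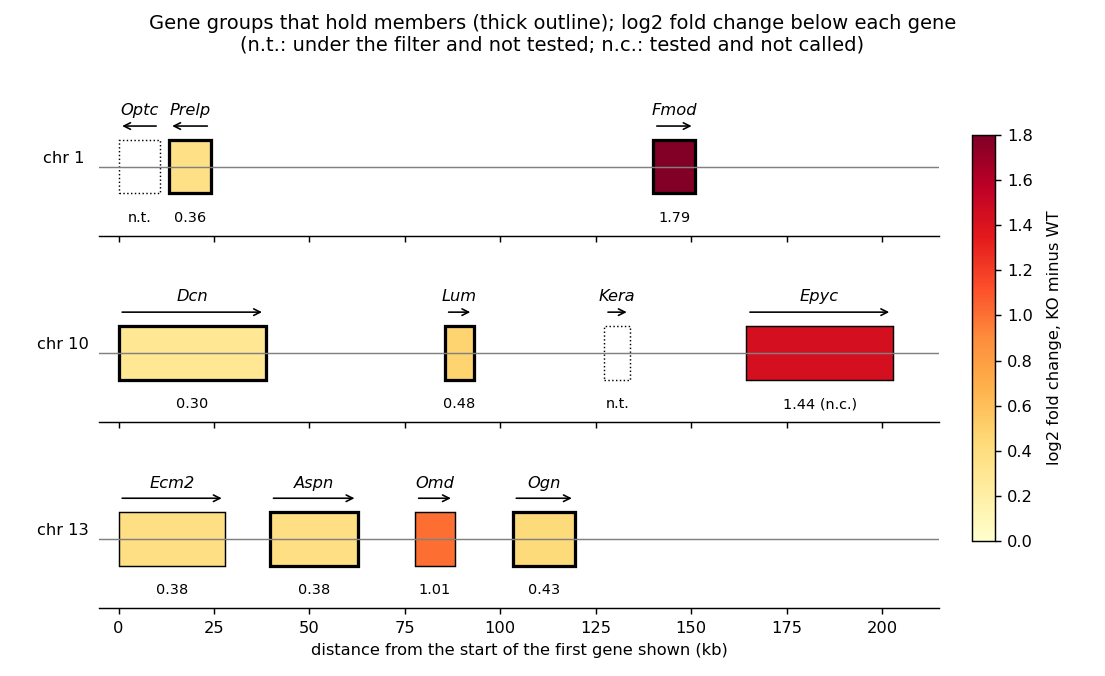
SLRP genes on chromosomes 1, 10 and 13, drawn to scale as distance in kb from the start of the first gene shown; colour and the number below each gene give the log2 fold change (Mettl3 KO minus WT), arrows the strand, and thick outlines the members. Dcn, Lum, Prelp, Aspn and Ogn lie between 0.30 and 0.48, Omd at 1.01 and Fmod at 1.79. Scaled to the 9 detected fibroblast markers, Dcn, Prelp, Aspn and Ecm2 lie at -0.08, -0.02, -0.0028 and -0.0013, none of which passed limma. In the planned scaling to 10 markers their estimates stay above 0.

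Beyond the 8 genes, lists of related genes were examined. Of 9 other SLRP genes tested, 2 rose (Omd and Ecm2, neither of which passed with the atrial covariate) and none fell. Podn, which encodes podocan, stood at 120, 93, 100 and 92 in WT, compared with 112, 118, 121 and 127 in Mettl3 KO libraries and did not pass (adjusted p = 0.143), and the others of this list were at 19 or below in every library. Of 10 other matrix proteoglycans tested, 1 rose, Prg4 (lubricin, log2 fold change 0.64, limma adjusted p = 0.0142), whose groups overlapped, which is named after its values were seen and whose call was lost without WT replicate 2 or 4 or Mettl3 KO replicate 4 (adjusted p 0.0518 to 0.0661). The basement membrane proteoglycan perlecan, Hspg2, also named after its values were seen, had 2723 to 2881 in WT and 2709 to 2866 in Mettl3 KO libraries. The list of 10 had a median log2 fold change of 0.07, against 0.37 for the 8 members and -0.01 for all genes tested.

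Among 12 cell surface proteoglycans 3 glypicans rose and none of the 12 fell in limma, with 1 lower at an unadjusted p under 0.05. This was Tgfbr3, which encodes the TGF-beta co-receptor betaglycan and was named after its values were seen. It stood at 616, 593, 632 and 621 in WT, compared with 558, 510, 587 and 562 in Mettl3 KO libraries, without overlap and without passing (log2 fold change -0.15, limma adjusted p = 0.0686). Gpc3 stood at 37, 31, 26 and 35 in WT, compared with 48, 51, 53 and 51 in Mettl3 KO libraries (log2 fold change 0.65, SE 0.15). The log2 fold changes of Gpc4 and Gpc6 were 0.41 and 0.27, with limma adjusted p-values of 0.0049 and 0.0419, and the call of Gpc6 was lost in 7 of the 8 fits that left out a library (adjusted p 0.0604 to 0.126), all but that without WT replicate 1. Gpc6 was also not called with library totals, quantile normalisation or voom, nor without a mean-variance trend. Its log2 fold change lay between 0.23 and 0.32 in the 19 alternatives without fibroblast scaling. Of 10 genes for hyaluronan synthesis, breakdown and linkage, which serve the ligand of versican, 1 rose, the hyaluronidase-like Cemip2 (log2 fold change 0.22, adjusted p = 0.0382), a call lost in 7 of the 8 such fits (0.0599 to 0.128), all but that without WT replicate 3. The hyaluronan synthase Has2, named after its values were seen, was at 8 to 12 in WT and 9 to 17 in Mettl3 KO libraries.

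Of 7 proteoglycan-cleaving ADAMTS proteases, 2 rose and 1 fell. Adamts1, which cleaves versican and aggrecan, stood at 227, 239, 202 and 248 in WT, compared with 307, 297, 293 and 295 in Mettl3 KO libraries (log2 fold change 0.38, SE 0.07, limma adjusted p = 0.000778). Adamts8 rose from 3 to 6 in WT to 9 to 18 in Mettl3 KO libraries (limma adjusted p = 0.0133), a call lost without Mettl3 KO replicate 3 or 4 (0.0539 and 0.0712). Adamts9, named after its values were seen, fell with a log2 fold change of -0.25 (adjusted p = 0.00628), although its groups overlapped.

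Of the 29 enzymes tested that build the chains, 4 rose (13.8%, against 4.72% of all genes tested) and none fell, with 1 lower at an unadjusted p under 0.05. Of 10 enzymes of the linker and of chain precursors, 2 rose. Fam20b had the values given above, and B3galt6, a galactosyltransferase of the linker, stood at 17, 23, 15 and 16 in WT, compared with 31, 30, 29 and 28 in Mettl3 KO libraries (log2 fold change 0.72, limma adjusted p = 0.0256), a call lost in 7 of the 8 fits that left out a library (0.05 to 0.0661), all but that without WT replicate 2. Of 15 chondroitin and dermatan sulfate enzymes, 2 rose, Csgalnact2, which starts and extends chondroitin chains (0.29, adjusted p = 0.00757), and Dsel, a dermatan sulfate epimerase (0.29, adjusted p = 0.0355, lost without WT replicate 2 or 3 or Mettl3 KO replicate 2, 3 or 4, at 0.0516 to 0.108). None of 4 keratan sulfate enzymes passed limma or voom, and 0 of them had an unadjusted p under 0.05. Over the 8 lists of proteoglycan and glycosaminoglycan genes, counting each gene once, 13 of 77 genes rose (16.9%, against 4.72% of all genes tested) and 1 fell, with a median log2 fold change of 0.12. In the planned scaling to 10 fibroblast markers 3 of the 77 were higher and 10 lower, beside 211 and 4601 of all 20313 genes tested. Relative to the 9 detected markers 3 were higher and 24 lower, beside 173 (0.852%) and 9525 (46.9%) of all genes. Each of these scalings moves the log2 fold changes of all genes down by the same amount. With the level of atrial markers as a covariate 2 of the 77 were higher and 2 lower, beside 578 and 335 of all 20313 genes. Without Mettl3 KO replicate 3 or 4 the numbers called were 9 and 8, beside 1019 and 1140 genes in all.

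The list with the most calls was that of partners bound by SLRPs, in which 11 of 14 genes rose and none fell (limma, with 1 lower at an unadjusted p under 0.05, Tgfb1). Over all genes tested 4.72% were higher and 3.19% lower in this fit. Relative to 10 fibroblast markers, 3 collagen genes of this list among them, 4 partners were higher and 1 lower, and relative to the 9 detected ones 2 were higher and 2 lower. Of all 20313 genes tested, 211 were higher and 4601 lower in the first of these scalings, and 173 higher and 9525 lower in the second. Without a mean-variance trend 3 partners were higher, beside 211 of all 20313 genes. With the level of atrial markers as a covariate 9 partners were higher and 0 lower, beside 578 and 335 of all genes. Tgfb2, a TGF-beta ligand, stood at 110, 106, 111 and 115 in WT, compared with 194, 198, 187 and 196 in Mettl3 KO libraries (log2 fold change 0.80, SE 0.08, limma adjusted p = 4.79e-07). Tgfb3 stood at 154, 140, 178 and 133 against 267, 207, 223 and 235 (0.62, adjusted p = 0.000113), a call lost relative to the 9 detected fibroblast markers (0.24, adjusted p = 0.051) and without a mean-variance trend (adjusted p = 0.0545). Tgfb1, named after its values were seen, stood at 102, 92, 91 and 98 against 75, 83, 73 and 80 and did not pass (adjusted p = 0.0677). Tnc, which encodes tenascin-C, rose with a log2 fold change of 0.92, and Fbln1, which encodes the versican- and elastin-binding fibulin-1, with one of 0.59.

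**Figure D3:**
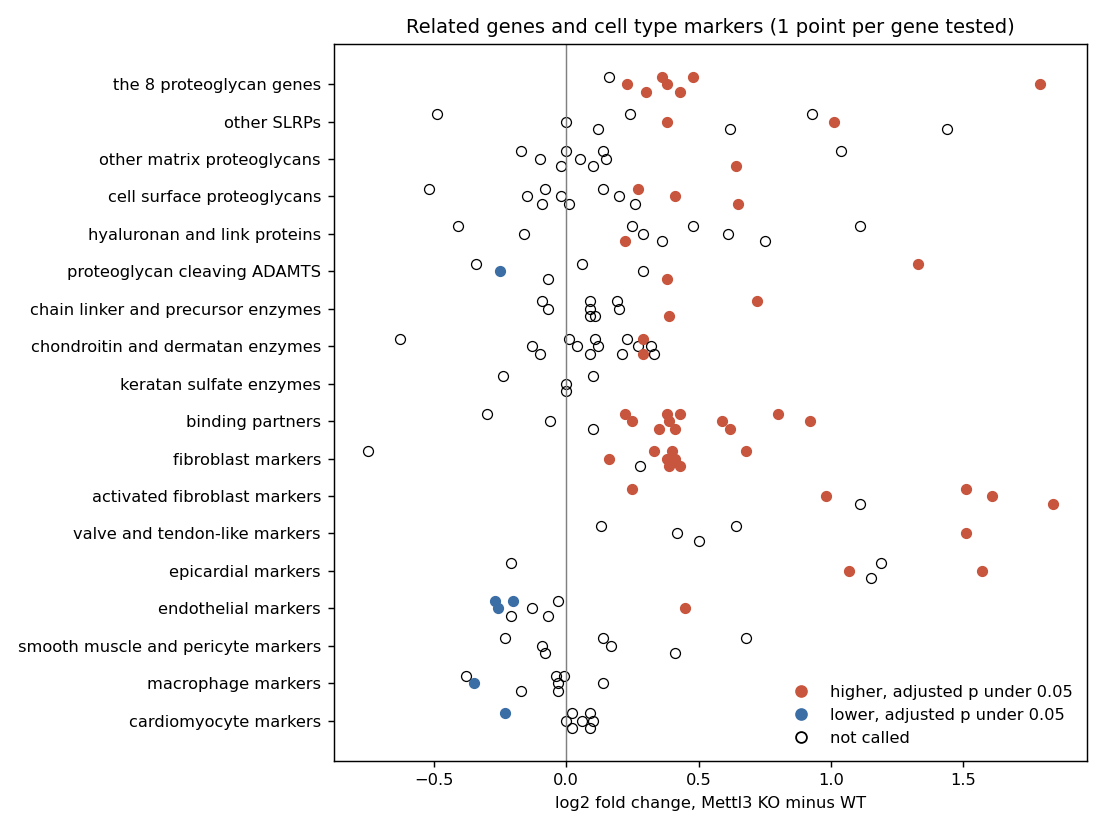
Log2 fold change (horizontal axis, Mettl3 KO minus WT) of every tested gene of the 8 proteoglycans, 9 lists of related genes and 8 of the 9 lists of cell type markers (the atrial list is not drawn), 1 point per gene; red points were higher and blue points lower at a limma adjusted p under 0.05, open points were not called. Of the members 7 of 8 points are red, of the binding partners 11 of 14 and of the fibroblast markers 8 of 10, with the collagen genes in both of the last lists. Scaling to the 9 detected fibroblast markers moves every point to the left by the same amount, the all-gene median to -0.39. It puts Dcn, Bgn, Prelp, Aspn and Vcan below 0, Vcan alone of them passing limma. Bgn and Vcan also lie below 0 in the planned scaling to 10 markers, without passing.

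Markers of fibroblasts moved with the proteoglycans. Of 10 fibroblast markers, 8 rose and none fell, against 4.72% and 3.19% of all genes tested. Their median log2 fold change was 0.39, and their summed value was 3959 to 4437 in WT and 4870 to 5512 in Mettl3 KO libraries. Dpt, which encodes the decorin-binding matrix protein dermatopontin, stood at 164, 182, 180 and 185 in WT, compared with 235, 236, 232 and 237 in Mettl3 KO libraries, and log2 fold changes of 0.68, 0.43 and 0.41 were found for Mfap5, Col3a1 and Col1a2. In limma without a mean-variance trend 1 of the 8 calls held (Dpt), and the adjusted p was 0.0604 for Mfap5, 0.0911 for Col3a1 and 0.0668 for Col1a2. The fibroblast transcription factor Tcf21 did not pass (53, 35, 43 and 48 against 51, 50, 56 and 59), and Lamc3 was at 0 to 7. In bulk heart RNA more cells of a type and more RNA per cell cannot be told apart. Of 6 markers of activated fibroblasts, 5 rose, and 4 were called without the trend. Cilp stood at 121, 72, 85 and 66 in WT, compared with 357, 219, 356 and 296 in Mettl3 KO libraries, and Postn, which encodes periostin, at 453, 337, 371 and 349 against 846, 549, 843 and 770. The log2 fold changes of Cilp, Thbs4, Comp and Postn were 1.84, 1.61, 1.51 and 0.98.

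Markers of other cell types were then examined beside the proteoglycans. Of 5 valve and tendon-like markers, whose sum was 74 to 90 in WT and 127 to 148 in Mettl3 KO libraries, 1 rose (Comp), Scx stood at 12, 19, 23 and 27 against 31, 27, 33 and 33 without passing, and Tnmd was at 0 to 3. Comp is also in the list of activated fibroblast markers. Within this sum it stood at 21, 23, 16 and 19 in WT, compared with 64, 51, 55 and 61 in Mettl3 KO libraries. Of 5 epicardial markers 2 rose (sum 69 to 110 against 90 to 147), with Upk3b at 11, 8, 2 and 16 against 17, 20, 39 and 27 (adjusted p 0.0607 and 0.0927 when either Mettl3 KO replicate 3 or 4 was left out). The other, Lrrn4, lost its call in 4 of the 8 fits that left out a library (WT replicate 2 or 3, Mettl3 KO replicate 3 or 4, adjusted p 0.0749 to 0.121), so that neither was called without Mettl3 KO replicate 3 or 4, nor with the atrial covariate. Of 8 endothelial markers Vwf rose (0.45), 3 fell, among them Tie1 and Kdr (-0.27 and -0.26), and the sum was 4825 to 4975 in WT and 4407 to 4786 in Mettl3 KO libraries. None of 7 smooth muscle and pericyte markers passed limma or voom (2397 to 2599 against 2304 to 2587), with 2 higher and 1 lower at an unadjusted p under 0.05, but without Mettl3 KO replicate 1 Tagln (0.55, adjusted p = 0.023) and Myh11 (0.25, adjusted p = 0.0258) were called higher. Of 8 macrophage markers 1 fell, Cd163 (-0.35, a call lost without WT replicate 1 or 3 or Mettl3 KO replicate 3 or 4, adjusted p 0.0503 to 0.0862), with sums of 1162 to 1424 and 1100 to 1318. Of 8 cardiomyocyte markers 1 fell, Ryr2 (-0.23), with sums of 90581 to 97179 and 87923 to 98408. With the level of atrial markers as a covariate the calls of Ryr2 (-0.10, adjusted p = 0.125), Tie1 (-0.29, adjusted p = 0.085), Kdr (-0.20, adjusted p = 0.0881) and Cd163 (-0.34, adjusted p = 0.194) were lost. All 4 atrial markers rose, with groups that overlapped and sums of 17 to 150 against 146 to 911, and 2 of the 4 were called without Mettl3 KO replicate 2, 3 or 4. Bmp10 was at 0 in every WT library and in Mettl3 KO replicate 1. Without a mean-variance trend the call of Comp held, and those of the 2 epicardial, 4 endothelial, 1 macrophage, 1 cardiomyocyte and 4 atrial markers were lost. The part of these cell types in the change of the proteoglycans was not tested beyond the fits that follow.

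To compare the proteoglycans with fibroblast transcripts directly, each library was scaled to the mean log2 level of the 9 fibroblast markers whose mean value reached 20. The geometric mean of these markers was 269 to 314 in WT and 350 to 392 in Mettl3 KO libraries, and this scaling moved the median log2 fold change of all genes to -0.39. Under it, 173 of 20313 genes (0.852%) were higher and 9525 (46.9%) lower. Of the 8 proteoglycans, Fmod alone was higher, with a log2 fold change of 1.41 (95% confidence interval 1.00 to 1.81, limma adjusted p = 3.02e-07). Relative to the markers Fmod stood at 0.105, 0.0782, 0.0405 and 0.0756 in WT, compared with 0.203, 0.157, 0.184 and 0.212 in Mettl3 KO libraries, still without overlap. The estimates for Lum and Ogn were 0.10 and 0.05, that for Aspn was -0.0028, and those for Dcn, Prelp and Bgn were -0.08, -0.02 and -0.16, none of which passed. In the planned scaling to 10 markers, Lamc3 included, Lum was at 0.21 (95% confidence interval -0.01 to 0.44) and Ogn at 0.16 (-0.04 to 0.36), also without passing. Vcan was lower, with a log2 fold change of -0.22 (limma adjusted p = 0.0328), and in the planned scaling it was -0.11 and did not pass. The ratio of Vcan to the markers was 1.5 ± 0.185 in WT and 1.28 ± 0.0758 in Mettl3 KO libraries (SD, n = 4), and its groups overlapped. Cilp, Thbs4, Comp and Postn also stayed higher on this scale, at 1.45, 1.23, 1.12 and 0.60.

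With the level of the 4 atrial markers as a covariate, 578 of 20313 genes (2.85%) were higher, and among them were 6 of the 8 proteoglycans. Fmod was higher by 1.33 on the log2 scale (SE 0.33, adjusted p = 0.0158 by limma), Lum one of 0.64 and Ogn one of 0.54. Prelp, at 0.39, just missed the threshold (adjusted p = 0.0507), and Vcan was at 0.03 (adjusted p = 0.906). Leaving out Mettl3 KO replicate 1 or WT replicate 3, the libraries that stood apart in atrial transcripts, left 7 of the 8 genes called in each case. Without Mettl3 KO replicate 1, however, the atrial sums no longer overlapped (17 to 150 in WT against 563 to 911 in Mettl3 KO libraries). In that fit genotype and atrial level cannot be told apart. Of the related genes named above, Gpc3, Gpc6, Cemip2, Adamts1, Adamts8, B3galt6, Csgalnact2, Dsel and Prg4 did not pass with the covariate (adjusted p 0.0761 for Cemip2 to 0.541 for Dsel), nor did the fibroblast marker Mfap5 (adjusted p = 0.106). Log2 fold changes with it were 0.31 for Cemip2, 0.27 for Gpc6, 0.61 for Prg4, 0.66 for B3galt6, 0.31 for Adamts1 and 0.54 for Mfap5. In the main fit they were 0.22, 0.27, 0.64, 0.72, 0.38 and 0.68. Those of Gpc3, Adamts8, Csgalnact2 and Dsel were 0.41, 0.90, 0.16 and 0.17, against 0.65, 1.33, 0.29 and 0.29. The SE was larger with the covariate for each of these genes.

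**Figure D4:**
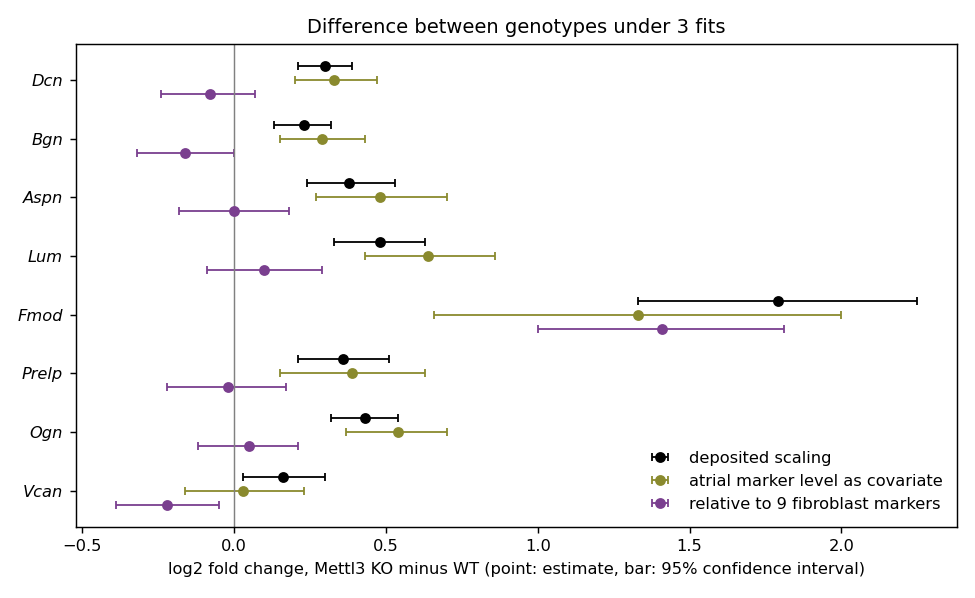
Log2 fold change (Mettl3 KO minus WT, horizontal axis) of the 8 proteoglycan genes with 95% confidence intervals (bars) on the scaling of the authors (black), with atrial marker level as covariate (olive) and relative to 9 fibroblast markers (purple). Relative to fibroblast markers the estimates of 7 genes lie between -0.22 and 0.10, whereas Fmod stays at 1.41.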

How the data were processed

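Total RNA of mouse hearts was sequenced by the authors as stranded single-end libraries of 72 nt. Per the study's methods and processing notes, the authors trimmed reads (Trimmomatic 0.39), aligned them to mm39 with Ensembl annotation (STAR 2.7.11a), removed duplicates (Picard 3.1.1) and multi-mapping, ribosomal and mitochondrial reads, counted over exons by strand (featureCounts 2.0.4) and normalised the counts with DESeq2 1.36.0. Removing duplicates of single-end reads lowers abundant short transcripts. The deposited values are a score: normalised counts that the authors rounded to whole numbers, with gaps and doublets at low values. Columns with the authors' own contrasts (fold changes and p-values) were not used.

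The reads per value were estimated from that spacing by maximum likelihood, which was tested on 6 simulated libraries. The largest error of the values per read in that test was 0.021. As the values are no raw counts, limma 3.58.1 in R 4.3.3 was run on log2(value + 1) with a mean-variance trend, over genes with a mean of at least 1, with genotype as the only term, two-sided, in place of a count model. Fold changes on this scale understate those of low genes. On libraries simulated with a dispersion of 0.005, 64.5% of 200 genes changed by a log2 value of 1 were recovered, and 95.7% of the 115 with a mean of at least 20. Smaller changes, such as those of every member but Fmod, and larger spreads between libraries were not simulated.

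The 8 genes, the lists and the tests were chosen with earlier results of these data known, so lists are described by counts and medians without set tests. Named are the 8 genes, Mettl3, up to 4 called genes without overlap per list by size of change, and the 5 genes with the most similar profile. Podn, Epyc, Kera, Optc, Tcf21, Lamc3, Scx, Tnmd, Lrrn4, Tagln, Myh11 and the genes marked so in the text were named after their values were seen. Lengths came from GENCODE vM21 by gene identifier and promoters from RefSeq (GRCm38.p6). Alternatives comprised other scalings, pseudocounts, filters, variance models, covariates and leaving out each library; scaling to detected fibroblast markers and voom on recovered reads were chosen after seeing the data.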

Additional observations from a re-analysis of the deposited data

Results flagged for a closer look

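Among 43 named genes and both library totals, 90 groups of 4 libraries were searched for a library far from the other 3, and 4 were found. Chance alone marks about 1 in 20 such groups, or 4.5 here. None of the 8 proteoglycans was among them. Omd in Mettl3 KO replicate 2 was at 36 against 28 to 29 in the other Mettl3 KO libraries, a gap of 0.875 of the range. Fam20b in WT replicate 3 was at 378 against 370 in each of the other WT libraries, a gap of 1.000 of the range that amounts to 8 values. Cd163 in Mettl3 KO replicate 2 was at 168 against 161 to 162 (0.857), and Ryr2 in WT replicate 3 was at 10427 against 9666 to 9731 (0.915).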

How the results depend on the processing

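All 7 calls among the proteoglycans were kept with library totals, quantile normalisation, pseudocounts of 0.5 and 5, other filters and voom. The call of Gpc6 was not kept with library totals, quantile normalisation or voom, nor that of Dsel with voom on the deposited values. Without a mean-variance trend 3 were higher (Fmod, Lum and Ogn) and 321 genes were called, with 7 of the 91 related genes (binding partners included) and 4 of the 77 proteoglycan and glycosaminoglycan genes among them. With the atrial covariate 6 members were higher, and 913 genes were called, 13 of the 91 and 4 of the 77. Scaled to all 10 fibroblast markers 1 member was higher and 4812 genes were called, 211 higher and 4601 lower (13 of the 77, 3 of them higher and 10 lower). The all-gene median was then -0.28, with Bgn at -0.04, Vcan at -0.11 and Cemip2 at -0.05. Scaled to the 9 detected ones 1 member was higher and 1 lower, and 9698 genes were called, 173 higher and 9525 lower (27 of the 77, 3 of them higher and 24 lower). The all-gene median was then -0.39, and log2 fold changes below 0 were found for Dcn (-0.08), Bgn (-0.16), Prelp (-0.02), Aspn (-0.0028), Vcan (-0.22), Gpc6 (-0.11), Csgalnact2 (-0.10), Dsel (-0.10), Cemip2 (-0.17), Ecm2 (-0.0013), Adamts1 (-0.0017), Sspn (-0.03), Mrpl44 (-0.02) and Ehd4 (-0.02). Leaving out 1 library gave 7 members, 18 to 24 of the 91, 8 to 14 of the 77 and 1019 to 1596 genes in all, the lowest without Mettl3 KO replicate 3. The cause of these changes was not tested, apart from the lower all-gene median that scaling to fibroblast markers sets by construction.

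A paired fit with the replicate block kept 7 members higher and called 1346 genes, and in it Cemip2 and Dsel were not called. The numbers are not stated to pair animals, and deviations of same-numbered libraries correlated at 0.052, 0.042, -0.041 and 0.088 over 12027 genes, so that not every library correlated best with its own number. At 2631904 to 3061268 reads a library, Fmod in WT rested on few reads, and Kera and Optc could not be assessed.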
